A study of Mus musculus with 24 samples.

Results

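Trophoblast regulators are the genes that set up and mark the trophectoderm, the outer cell layer of the mouse blastocyst, and the stem cells derived from it. The 9 genes Cdx2, Eomes, Elf5, Tfap2c, Gata2, Gata3, Hand1, Krt8 and Krt18 were taken by name from the 51912 genes of the RNA-Seq count tables. Their expression was followed in 9 libraries of the series, 3 each from ESCs, NPs and TET TKO ESCs. ESCs were the wild type TC-1 line on a C57BL/6 X 129S5 background, kept on gelatin in medium with LIF. NPs, neuronal progenitors of the same genotype and strain, came from ESCs grown as floating cellular aggregates, with retinoic acid added over the second part of the culture. TET TKO ESCs lack TET1, TET2 and TET3, the dioxygenases that oxidise 5-methylcytosine and start its removal, and their strain was C57BL/6 X 129/sv. Each group represents 1 cell line, and whether the RNA came from the parental lines or from their transgenic derivatives is not stated in the sources used here.

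In the blastocyst, the inner cells go on to form the embryo while the outer cells polarise, shut off the pluripotency programme and become trophectoderm. Hippo signalling is low in the outer cells, so YAP1 enters the nucleus, binds TEAD4 and turns on Cdx2 and Gata3. Eomes, Elf5 and Tfap2c then keep trophoblast stem cells dividing, Hand1 drives their maturation into giant cells, and the keratins encoded by Krt8 and Krt18 form the filaments of this first epithelium. Several of these genes act again elsewhere, such as Gata2 and Gata3 in neurons and blood, Cdx2 in the posterior body axis and gut, Eomes in mesendoderm and Hand1 in the heart. ESCs hold promoters of some of these genes methylated, Elf5 being the best known case, and TET proteins and DNA methylation are therefore of interest for how ESCs are kept from a trophoblast fate.

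Total counts per library ranged from 20570050 to 23976914 in ESCs, from 20519702 to 22132988 in NPs and from 80704741 to 93210102 in TET TKO ESCs. Levels are given as RPKM, read counts scaled to gene length and library size, with TMM factors over all 9 libraries. The study's limits define a call here, namely a fold of 3 or more with a p under 0.001 after Benjamini-Hochberg adjustment, from edgeR's quasi-likelihood test over genes that reached 1 RPKM in at least 1 library of the groups compared. A gene under 1 RPKM in every library of 1 group could enter a test only if it was higher in the other group. The filter thus set the direction of such genes among the regulators and in every list, so counts and medians of these are descriptions. Tet2 fell by 2.94 ± 0.129 (SE) and Tet1 fell by 2.28 ± 0.143 on the log2 scale in TET TKO ESCs against ESCs (adjusted p = 1.74e-05 and 8.67e-05), but Tet1 reads remained at 11.3 to 16.1 RPKM, against 60.8 to 68.5 RPKM in ESCs. Tet3 lay at 0.474 to 0.617 RPKM in TET TKO ESCs and 0.631 to 0.77 RPKM in ESCs, under the filter, and which exons the knockout alleles lack is not stated in the sources used here, so that counts over whole genes check the labels only in part. The labelled cell types had their defining markers. The summed level of 7 pluripotency genes was 1670 to 1700 RPKM in ESCs, 1190 to 1330 RPKM in TET TKO ESCs and 55.2 to 68.3 RPKM in NPs, and 8 of 9 neural progenitor genes were called higher in NPs than in ESCs. Of all genes tested, 12.4% were called higher in NPs.

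The 9 regulators fell into 3 patterns. Krt8, Krt18, Gata2, Gata3 and Cdx2 had their highest mean in NPs. Tfap2c, Eomes and Hand1 had their highest mean in TET TKO ESCs and their lowest in NPs. Elf5 was close to undetected in every group.

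**Figure D1:**
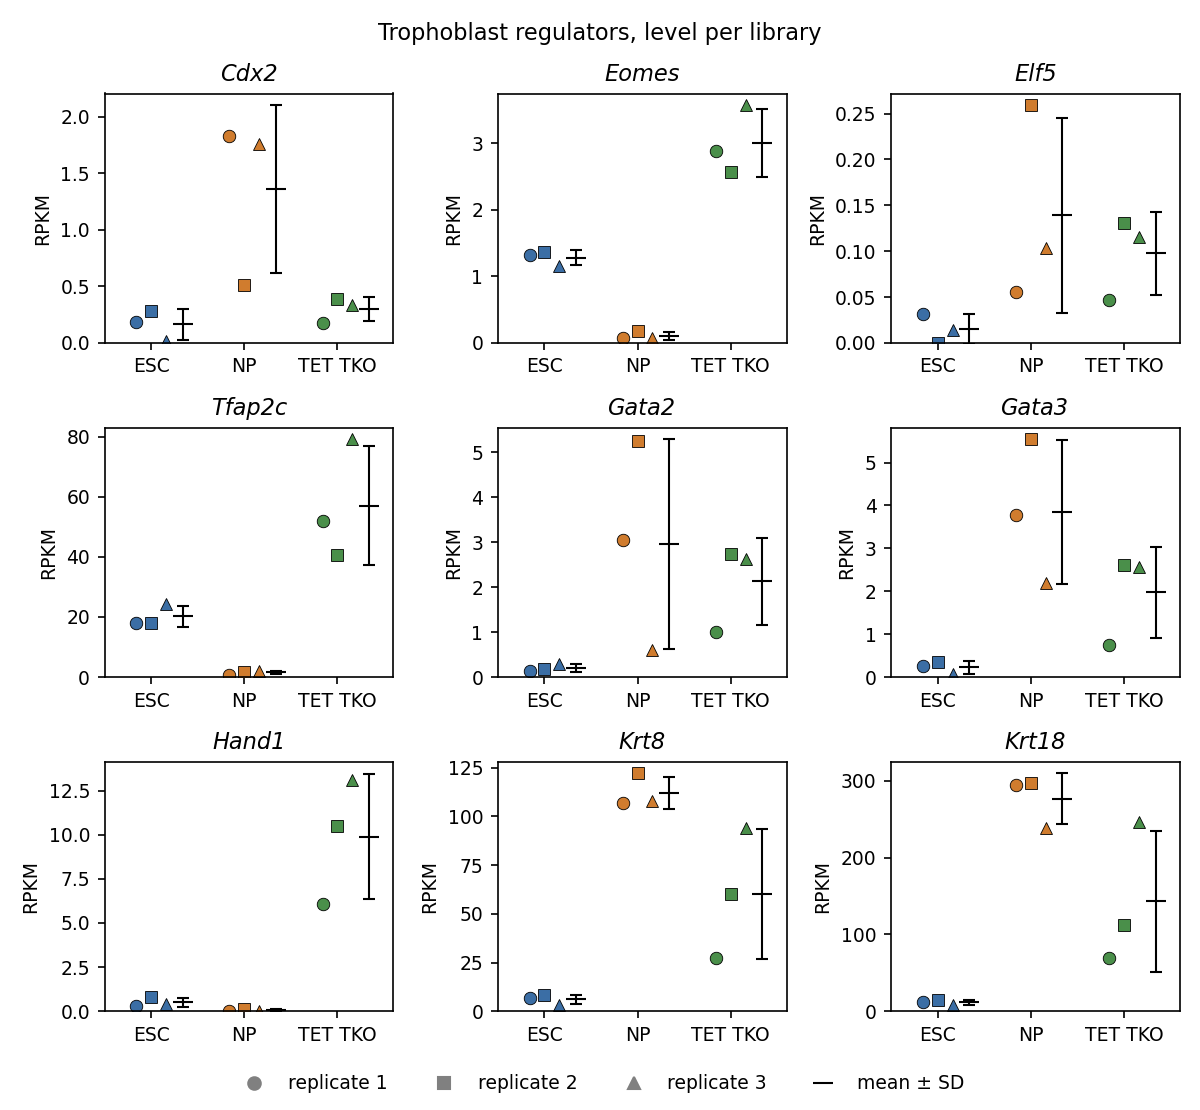
Level of each of the 9 regulators in RPKM (linear axes that start at 0, with a scale of their own per gene) in the 3 ESC, 3 NP and 3 TET TKO libraries. Each symbol is 1 library and the black bar is the mean ± SD. Krt8 and Krt18 lie far above their ESC values in all NP and TET TKO libraries, Tfap2c, Eomes and Hand1 are highest in all TET TKO libraries, and Elf5 stays under 0.3 RPKM.

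Among the 4 of the 9 regulators that hold the stem cell state (Tfap2c, Eomes, Cdx2 and Elf5), Tfap2c, encoding AP-2 gamma (ENSMUSG00000028640, chromosome 2, 172549593 to 172558622, plus strand, in GRCm38 as for all genes here), had the highest level per length in ESCs and TET TKO ESCs. It was measured at 18.1, 18.1 and 24.4 RPKM in ESCs, at 0.816, 1.78 and 1.99 RPKM in NPs and at 51.8, 40.5 and 79.1 RPKM in TET TKO ESCs. No library of 1 group overlapped another group. Tfap2c fell in NPs by 3.72 ± 0.321 on the log2 scale against ESCs (adjusted p = 2.26e-05, edgeR quasi-likelihood test with Benjamini-Hochberg adjustment, as for every adjusted p below). In bulk RNA, fewer cells with a transcript and less transcript per cell cannot be told apart. In TET TKO ESCs the difference from ESCs was 1.49 ± 0.253 (adjusted p = 0.00396), a 2.8-fold higher level that was under the fold limit and did not meet the limit on p.

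Eomes, a T-box factor (ENSMUSG00000032446, chromosome 9, 118478212 to 118486132, plus strand), showed the same order of groups at a lower level. It had 1.32, 1.37 and 1.15 RPKM in ESCs, 0.0678, 0.178 and 0.0727 RPKM in NPs and 2.88, 2.57 and 3.57 RPKM in TET TKO ESCs, again without overlap between groups. The NP values rested on 6, 18 and 7 reads. Eomes fell in NPs by 3.56 ± 0.402 on the log2 scale (adjusted p = 9.71e-05), or by 4.16 ± 0.349 without replicate 2 of NPs, and the difference of TET TKO ESCs from ESCs was 1.23 ± 0.201 (adjusted p = 0.00345), or 2.3-fold. Counting ignored strand, and Eomes shares 118 exonic bases with Gm33460 on the opposite strand, which itself had 0 to 4 counts in ESCs and NPs and 19 to 31 in TET TKO ESCs, against 762 to 1278 counts of Eomes there.

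Cdx2, the caudal-type homeobox factor that specifies trophectoderm (ENSMUSG00000029646, chromosome 5, 147300805 to 147307270, minus strand), stayed under 0.4 RPKM in both kinds of ESC. ESC libraries held 9, 14 and 1 reads, or 0.187, 0.283 and 0.018 RPKM, and TET TKO libraries 0.178, 0.384 and 0.333 RPKM. These ranges overlapped. No library of either group reached 1 RPKM, so Cdx2 was tested between them only without the filter, with a log2 fold change of 0.89 ± 0.581 (adjusted p = 0.356), and with all 3 groups in 1 fit, with 0.89 ± 0.726 (adjusted p = 0.387). In NPs Cdx2 reached 1.83, 0.51 and 1.76 RPKM, all above ESCs, with a difference of 3.08 ± 0.76 on the log2 scale that passed an adjusted p of 0.05 but not the limit (adjusted p = 0.00707). Its paralog Cdx1 was at 1.45 ± 0.26 RPKM (SD, n = 3) in ESCs, 0.933 ± 0.678 RPKM in NPs and 0.334 ± 0.228 RPKM in TET TKO ESCs. Against ESCs, Cdx1 had a log2 fold change of -2.11 ± 0.498 in TET TKO ESCs (adjusted p = 0.0145, not called). Cdx4, the other paralog, averaged 0.142 RPKM in ESCs, 0 in NPs and 0.415 RPKM in TET TKO ESCs. Both are counted among the paralogs below.

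Elf5, an ETS factor whose promoter methylation separates ESCs from trophoblast stem cells (ENSMUSG00000027186, chromosome 2, 103411688 to 103450989, plus strand), had 4, 0 and 2 reads in the ESC libraries. NP libraries held 7, 37 and 14 reads, and the deeper TET TKO libraries 21, 55 and 59. Per length and depth, this was 0.0559 to 0.259 RPKM in NPs and 0.0463 to 0.131 RPKM in TET TKO ESCs, so that all 6 libraries exceeded the highest ESC value of 0.032 RPKM while remaining under the filter. A test of Elf5 was therefore made only without the filter. It gave a log2 fold change against ESCs of 3.13 ± 0.733 in NPs (adjusted p = 0.000809, past both limits) and 2.65 ± 0.714 in TET TKO ESCs (adjusted p = 0.00955), where the 3 ESC libraries together held 6 reads, and -0.45 ± 0.549 between TET TKO ESCs and NPs (adjusted p = 0.593).

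The GATA factors Gata2 and Gata3, zinc finger proteins that bind the same motif and act in trophectoderm, were both higher in NPs and TET TKO ESCs than in ESCs, in every library. Gata3 (ENSMUSG00000015619, chromosome 2, 9857078 to 9890034, minus strand) had 0.248, 0.357 and 0.0716 RPKM in ESCs, 3.78, 5.54 and 2.19 RPKM in NPs and 0.753, 2.62 and 2.57 RPKM in TET TKO ESCs. No NP or TET TKO library overlapped the ESC range. Gata3 rose in NPs by 4.09 ± 0.547 on the log2 scale (adjusted p = 0.000248), and this call was lost without replicate 1 of ESCs (adjusted p = 0.0016) or replicate 1 of NPs (adjusted p = 0.00124). The difference of TET TKO ESCs from ESCs was 3.14 ± 0.652 (adjusted p = 0.00892), past 0.05 but not past the limit.

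Gata2 (ENSMUSG00000015053, chromosome 6, 88193891 to 88207032, plus strand) had 0.131, 0.187 and 0.301 RPKM in ESCs and 1.01, 2.74 and 2.62 RPKM in TET TKO ESCs, a difference of 3.34 ± 0.481 on the log2 scale (adjusted p = 0.00206). In NPs it spread widely, with 3.04, 5.26 and 0.592 RPKM. All 3 NP libraries were above ESCs, but the difference of 3.81 ± 0.735 was not called (adjusted p = 0.00192), and it was called when replicate 3 of NPs was left out (adjusted p = 0.000141). The ratio of Gata2 to Gata3 in RPKM was 1.02 to 1.35 in TET TKO ESCs and 0.27 to 0.949 in NPs, and from 0.523 to 4.21 in ESCs, where few reads stood behind it. Gata3 shares exonic bases with Gm13256 on the opposite strand and 9230102O04Rik on the same strand, which had at most 5 counts in any library.

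Hand1, a basic helix-loop-helix factor needed for trophoblast giant cells (ENSMUSG00000037335, chromosome 11, 57828705 to 57832818, minus strand), had the largest difference between TET TKO ESCs and ESCs among the 7 regulators tested. It was measured at 0.282, 0.802 and 0.428 RPKM in ESCs and at 6.08, 10.5 and 13.1 RPKM in TET TKO ESCs. The NP libraries held 1, 6 and 1 reads. Every TET TKO library was above every ESC library, and Hand1 rose by 4.29 ± 0.443 on the log2 scale, or 19.5-fold (adjusted p = 0.00058). Among the 7 tested, it alone was called in this comparison. The call was kept in 1 of the 6 fits that left out 1 library, with log2 fold changes of 4.02 to 4.77 and adjusted p from 0.000936 to 0.0042. Between NPs and ESCs Hand1 was under the filter. It fell by 3.07 ± 0.637 without the filter (adjusted p = 0.000208, past both limits) and had a log2 fold change of -3.09 ± 0.672 with all 3 groups in 1 fit (adjusted p = 0.0022, not called), with 8 reads in all over the NP libraries.

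Krt8 and Krt18 encode the type II and type I keratins that pair into the filaments of simple epithelia. Krt8 had 6.64, 8.32 and 3.47 RPKM in ESCs, 107, 122 and 108 RPKM in NPs and 27.1, 60 and 93.9 RPKM in TET TKO ESCs. Krt18 had 11.9, 14.1 and 8.4 RPKM in ESCs, 295, 297 and 239 RPKM in NPs and 69.2, 113 and 246 RPKM in TET TKO ESCs. Neither gene overlapped between ESCs and the other groups, and among the TET TKO libraries replicate 1 was the lowest and replicate 3 the highest for both, with a 3.47-fold range for Krt8 and a 3.56-fold range for Krt18.

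Both keratins rose in NPs, Krt18 by 4.59 ± 0.209 on the log2 scale (adjusted p = 1.03e-06) and Krt8 by 4.19 ± 0.291 (adjusted p = 7.6e-06), and these calls were kept in all 6 fits that left out 1 library. Against ESCs, TET TKO ESCs had higher Krt18 by 3.63 ± 0.473 (adjusted p = 0.00138) and Krt8 by 3.29 ± 0.494 (adjusted p = 0.00242). These are 12.4-fold and 9.8-fold higher levels, past an adjusted p of 0.05 and the fold limit but not past 0.001. Without replicate 3 of TET TKO ESCs the difference of Krt18 was 2.98 ± 0.27 and was called (adjusted p = 0.000583). In the fits that left out 1 library the log2 fold changes were 2.98 to 3.96 for Krt18, called in 1 of 6, and 2.82 to 3.64 for Krt8, called in 0 of 6. The spread within the TET TKO group was wider than within NPs, with an SD of 33.4 against 8.04 RPKM for Krt8 and 92 against 32.7 RPKM for Krt18.

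The levels of the 2 keratins kept a narrow ratio while each changed by more than 10-fold between ESCs and NPs. Krt18 was 1.69 to 2.42 times Krt8 in RPKM in ESCs, 2.22 to 2.75 times in NPs and 1.89 to 2.62 times in TET TKO ESCs. The genes lie next to each other on chromosome 15 of GRCm38 and point away from each other, Krt8 (ENSMUSG00000049382) at 101996711 to 102004342 on the minus strand and Krt18 (ENSMUSG00000023043) at 102028216 to 102032026 on the plus strand, with 23873 bases and 0 annotated genes between them. The 250 bases before the start of each gene are shown because the pair moved together. They are the RefSeq windows of GRCm38.p6, written 5′ to 3′ on the gene's strand with CpG sites in capitals, Krt8 at chr15:102004343-102004592 and Krt18 at chr15:102027966-102028215.
Krt8: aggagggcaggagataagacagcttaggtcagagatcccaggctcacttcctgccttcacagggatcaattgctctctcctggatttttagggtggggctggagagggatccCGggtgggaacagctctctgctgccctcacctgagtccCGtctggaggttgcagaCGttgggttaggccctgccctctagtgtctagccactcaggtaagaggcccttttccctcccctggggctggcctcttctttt
Krt18: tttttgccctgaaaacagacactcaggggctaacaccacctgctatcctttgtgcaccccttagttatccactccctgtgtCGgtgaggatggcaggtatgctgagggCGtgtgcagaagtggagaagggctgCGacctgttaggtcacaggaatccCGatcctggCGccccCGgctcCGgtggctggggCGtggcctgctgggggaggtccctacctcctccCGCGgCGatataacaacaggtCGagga
The Krt8 stretch holds 3 CpG sites and the Krt18 stretch 12. Over the full windows of 300 bases, which run 50 bases into the gene, Krt8 has 6 and Krt18 17, against a median of 7 over 32817 windows of the genome.

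**Figure D2:**
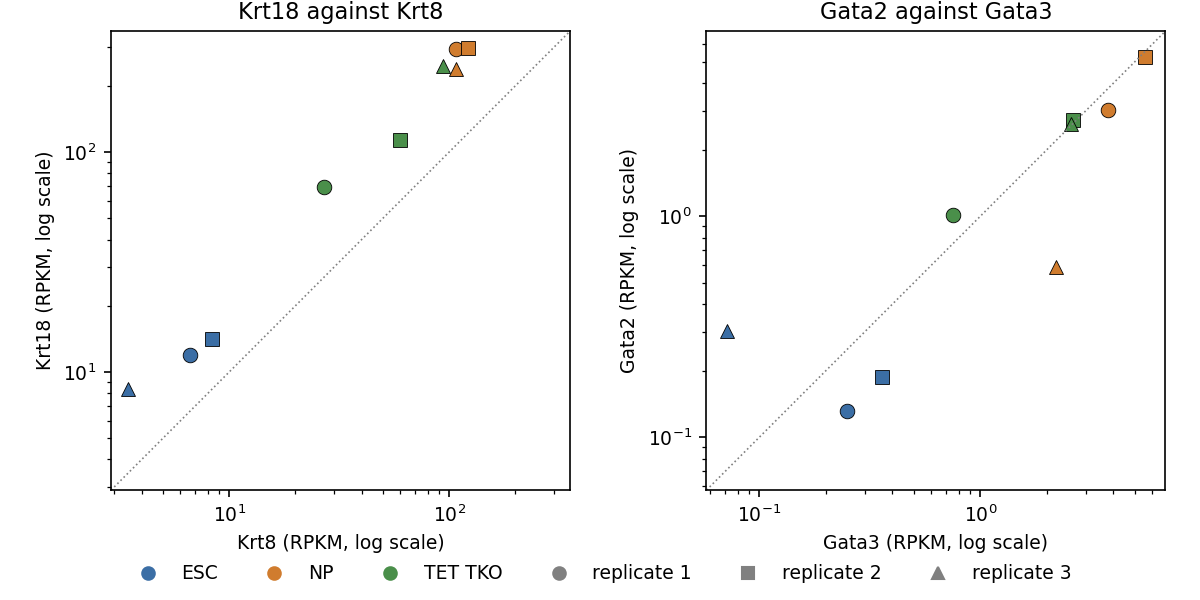
Krt18 against Krt8 and Gata2 against Gata3 in each of the 9 libraries, in RPKM on log axes, with colour for the group, symbol for the replicate and a dotted line where both genes are equal. All 9 libraries lie above the line for the keratins, and replicate 3 of NPs is the NP library farthest below the line for the GATA factors.

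Windows were found for 7 of the 9 regulators, and 9 windows in all, since Elf5 and Gata2 have more than 1 start, while Hand1 and Tfap2c had none. CpG sites per window numbered 32 and 29 for Gata2, 22 for Gata3, 18 for Cdx2, 10 for Eomes, and 3 and 10 for Elf5, so that the factors detected at the lowest level in ESCs included both CpG-poor and CpG-rich starts. A search on both strands for the GATA motif (AGATAA, with either A or T allowed as its first letter and A or G as its last) matched 3 of the 9 windows, those of Krt8 and Gata3 and the first of Elf5, against 29.8% of all windows. The AP-2 motif GCCNNNGGC matched 4, those of Cdx2, Krt18 and Gata3 and the second of Gata2, against 16.6% of all windows. The T-box motif TCACAC matched the second window of Elf5 and the first of Gata2, against 14.5% of all windows. A match describes the letters and not a bound site.

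Over the comparison of NPs with ESCs, 3 of the 7 regulators tested were called higher (Krt18, Krt8 and Gata3) and 2 lower (Tfap2c and Eomes), where 12.4% of the 15197 genes tested were called higher and 9.98% lower. Their median log2 fold change was 3.81, against 0.04 over all genes tested. Gata2, Gata3 and Cdx2 were under 1 RPKM in every ESC library and entered the test only through the NP libraries where they were higher. Eomes was under 1 RPKM in every NP library and entered only through ESCs, so this count and median are a description. The NP libraries lay wholly above ESCs for 5 regulators and wholly below for 2, and did so for 36.3% and 35.6% of all genes. Of the called regulators that reached 1 RPKM in libraries of both groups, Krt8 and Krt18 rose in NPs and Tfap2c fell.

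Between TET TKO ESCs and ESCs, 7 regulators were also tested, with Hand1 in place of Cdx2. By edgeR 1 was called higher and 0 lower, where 1.1% of 13939 genes were called higher and 1.21% lower. At an unadjusted p under 0.05, 7 were higher and 0 lower, as were 29.7% and 16.8% of all genes, and DESeq2 called 5 higher and 0 lower, against 2.9% and 3.63% of all genes. At an adjusted p under 0.05 with the same fold limit, 5 were higher (Hand1, Krt18, Gata2, Krt8 and Gata3) and 0 lower, against 4.16% and 4.07% of all genes. Without a fold limit all 7 were higher at 0.05, as were 22.8% of all genes. The median log2 fold change of the 7 was 3.29, against 0.12 over all genes, and in all 7 the TET TKO libraries lay wholly above the ESC libraries, as did 32.2% of all genes. Genes that reached the filter through the TET TKO libraries alone, such as Hand1, Gata2 and Gata3, could enter the test only if they were higher there, so the direction of the 7 is a description. Strain and sequencing depth differ together with the genotype and cannot be told apart from it. With TET TKO counts thinned to the depth of ESCs, the log2 fold changes of the 7 were 1.16 to 4.24 and 1 was called. Library totals without TMM factors shifted the median over all genes to -0.05 and the genes called from 153 higher and 169 lower to 99 and 191, and under them the regulators had log2 fold changes of 1.06 to 4.12.

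NPs and TET TKO ESCs are both compared with the same ESC libraries, so the 2 sets of fold changes are not independent. Set directly against NPs, TET TKO ESCs had higher Hand1 by 7.45 ± 0.606 on the log2 scale (adjusted p = 1.94e-05), Tfap2c by 5.28 ± 0.395 (adjusted p = 1.26e-05) and Eomes by 4.86 ± 0.449 (adjusted p = 3.71e-05). Without replicate 2 of NPs, the NP library with most reads of both genes, these were 8.76 ± 0.661 for Hand1 and 5.47 for Eomes. These 3 of 8 tested were called higher and 0 lower, against 8.82% and 9.12% of 14809 genes. Hand1 and Eomes were under 1 RPKM in every NP library, and Cdx2 in every TET TKO library. These genes could enter the test only in the direction seen, so the count is a description. At an unadjusted p under 0.05, 3 were higher and 3 lower, as were 36.4% and 26% of all genes, and DESeq2 called 3 higher and 1 lower, against 10.5% and 12.8% of all genes. Over all genes 1306 were called higher and 1350 lower, or 905 and 1692 with library totals alone, which moved the median from 0.17 to -0.16. Cdx2 had a log2 fold change of -2.13 ± 0.557, past 0.05 but not called (adjusted p = 0.00986). In the main edgeR fit the keratins and GATA factors did not pass an adjusted p of 0.05 between NPs and TET TKO ESCs. Their log2 fold changes were -0.41 ± 0.655 for Gata2, -0.84 ± 0.358 for Krt8, -0.89 ± 0.495 for Gata3 and -0.90 ± 0.38 for Krt18. Some alternatives put Krt8 and Krt18 under 0.05 without calling them, such as DESeq2 (adjusted p = 0.0198 and 0.0182) and edgeR with library totals alone (adjusted p = 0.0278 and 0.0305). Every TET TKO library lay below every NP library for Krt8, as for 29.7% of all genes, but not for Krt18. A p above the limit does not show equal levels, and the value for Gata2 turned to 0.30 without replicate 2 of NPs.

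**Figure D3:**
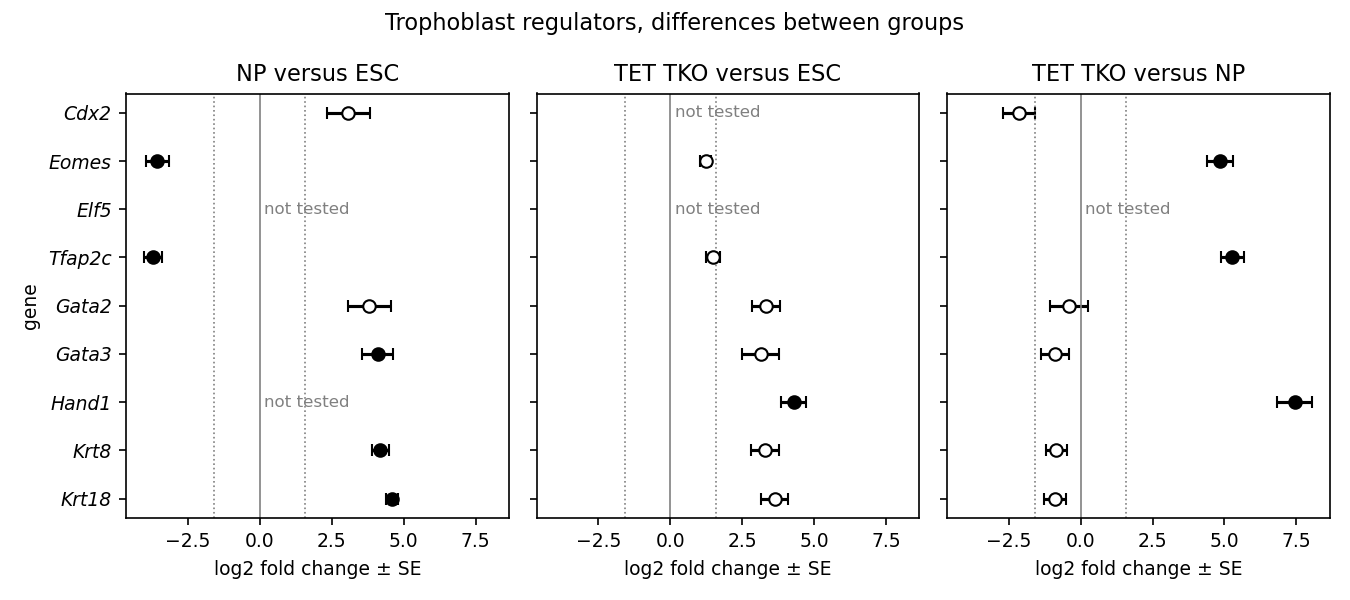
Log2 fold change of each regulator in the 3 comparisons, with bars of 1 SE from the edgeR fit. Filled circles were called (adjusted p under 0.001 and at least 3-fold), open circles were not, dotted lines mark a fold of 3, and genes under the filter are marked as not tested. Hand1 is the only filled circle between TET TKO ESCs and ESCs.

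Single libraries carried part of the spread. Replicate 1 of TET TKO ESCs had the lowest level for 7 of the 9 regulators, while replicates 2 and 3 were highest for 4 and 5. Over the 12307 genes with a mean of at least 1 RPKM in that group, replicate 1 was lowest for 29.1%, and replicates 2 and 3 highest for 35% and 36.8%. Some regulators were under that level, such as Elf5 in every group. Replicate 2 of ESCs was highest for 6 of the 9, against 39.5% of genes at that level in ESCs. Replicate 2 of NPs had the highest level for 7 of the 9, where it was highest for 28% of genes at that level in NPs. That NP library also had the lowest summed neural progenitor markers, at 195 RPKM against 384 and 298 RPKM, and the highest summed fibroblast markers, at 38.2 RPKM against 19.3 and 3.98 RPKM, and the part of either in the spread of the regulators was not tested.

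Of 9 other genes of trophoblast stem cells, 4 were called higher and 3 lower in NPs against ESCs, against 12.4% and 9.98% of all genes tested. Their median log2 fold change was 1.75, against 0.04 over all genes. Id2, an inhibitor of helix-loop-helix factors, rose by 3.73 ± 0.263 (adjusted p = 8.19e-06), and Fgfr2, the receptor for the FGF4 that maintains these cells, by 3.61 ± 0.117 (adjusted p = 3.15e-07). Esrrb and Sox2, which ESCs also need, fell by 7.65 ± 0.158 (adjusted p = 1.32e-07) and 2.07 ± 0.132 (adjusted p = 5.05e-06). Against ESCs, edgeR called 0 of the 9 in TET TKO ESCs, where 1.1% of all genes were called higher and 1.21% lower. The median was 0.30, against 0.12 over all genes. At an unadjusted p under 0.05, 4 were higher and 1 lower, against 29.7% and 16.8% of all genes. DESeq2 called 1 higher, against 2.9% of all genes. Tfap2c and Eomes thus fell in NPs as Esrrb and Sox2 did.

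Genes of trophoblast differentiation and placenta differed between the comparisons in their counts. Of 18 such genes, 10 were tested between TET TKO ESCs and ESCs, and edgeR called 0 at 0.001 (8 were higher at an unadjusted p under 0.05, and DESeq2 called 6), but 7 were at least 3-fold higher at an adjusted p under 0.05 and 0 lower, with a median log2 fold change of 2.12 against 0.12 over all genes. Of all genes tested, 4.16% were higher and 4.07% lower at the latter limits. At the unadjusted limit 29.7% were higher, and DESeq2 called 2.9% higher. Plac1 and Gcm1 passed the filter only through TET TKO libraries, so part of the direction of the list's count and median was set by the filter. The 7, named here after their values were seen, are Rhox6, Plac1, Rhox9, Gcm1, Peg10, Dlx3 and Plet1. Rhox6, a homeobox gene expressed in placenta, was at 2.65 ± 0.333 RPKM (SD, n = 3) in ESCs and 46.8 ± 39.6 RPKM in TET TKO ESCs, a difference of 4.13 ± 0.605 on the log2 scale (adjusted p = 0.00222). Plac1 differed by 3.80 ± 0.593 (adjusted p = 0.00285), and Gcm1, the factor of syncytiotrophoblast formation, by 2.74 ± 0.865 (adjusted p = 0.0419). Several markers of mature placental cells stayed near 0, since Tpbpa, Prl3d1, Prl3b1, Prl2c2 and Ctsq had at most 7 counts in any library and Synb had 0 counts in all 9. Syna, the other syncytin gene, had 13 to 21 counts in ESCs, 0 to 4 in NPs and 64 to 123 in TET TKO ESCs, where this was 0.442 to 0.704 RPKM.

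In NPs, the same list had 1 gene called higher and 2 lower of 8 tested, against 12.4% and 9.98% of all genes tested. Its median was -0.43, against 0.04 over all genes. Peg10, an imprinted gene of retrotransposon origin needed for the placenta, rose from 47.8 ± 16.7 to 244 ± 84.8 RPKM (adjusted p = 0.000279). Phlda2, which limits placental growth, fell by 4.32 ± 0.508 on the log2 scale (adjusted p = 0.000121) and Ascl2, needed for spongiotrophoblast, by 3.90 ± 0.32 (adjusted p = 1.73e-05). Against NPs, TET TKO ESCs had 2 of 10 called higher, Ascl2 and Phlda2, against 8.82% of all genes tested. Ascl2 was under 1 RPKM in every NP library, so the filter set its direction.

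**Figure D4:**
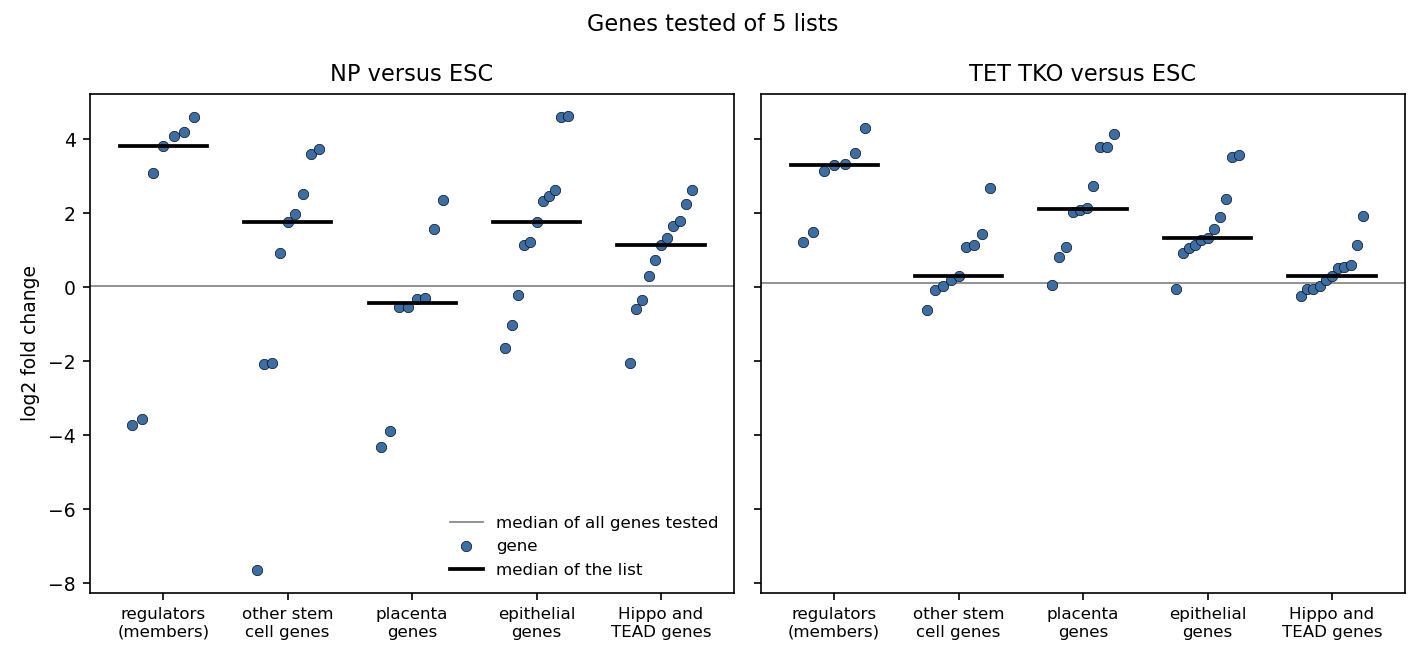
Log2 fold change of every tested gene of 5 lists in NPs and in TET TKO ESCs, each against ESCs. A point is 1 gene, the thick bar is the list's median and the grey line is the median of all genes tested. Among TET TKO values the regulators (median 3.29), the placenta genes (median 2.12) and the epithelial genes (median 1.34) lie mostly above the line. The other stem cell genes and the Hippo and TEAD genes each have a median of 0.30 there. In NPs the placenta genes have a median of -0.43.

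Of 11 epithelial genes, 6 were called higher and 1 lower in NPs, against 12.4% and 9.98% of all genes tested. Their median log2 fold change was 1.75, against 0.04 over all genes. Krt7 and Krt19, keratins of simple epithelia and trophoblast, rose by 4.62 ± 0.287 (adjusted p = 4.46e-06) and 4.59 ± 0.21 (adjusted p = 1.03e-06), close in size to Krt8 and Krt18. Jup, encoding plakoglobin of the junctions, fell by 1.65 ± 0.165 (adjusted p = 5.08e-05). Against ESCs, 1 of 11 was called in TET TKO ESCs, the tight junction gene Cldn7, which rose by 3.58 ± 0.418 (adjusted p = 0.000929). The median of the list was 1.34, against 0.12 over all genes, of which edgeR called 1.1% higher and 1.21% lower. At 0.05 with the fold limit 4 were higher (Cldn7, Krt7, Krt19 and Cldn4) and 0 lower, against 4.16% and 4.07% of all genes. Krt7 differed by 3.51 ± 0.661 (adjusted p = 0.00602) and Krt19 by 2.38 ± 0.455 (adjusted p = 0.00638). DESeq2 called 4 higher and 0 lower, against 2.9% and 3.63% of all genes. At an unadjusted p under 0.05 there were 10 and 0, against 29.7% and 16.8%.

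Of 11 genes of the Hippo pathway and the TEAD factors, 4 were called higher and 1 lower in NPs, against 12.4% and 9.98% of all genes tested. Tead3 rose by 2.62 ± 0.176 (adjusted p = 6.61e-06) and Amot, a scaffold that binds YAP1, by 2.25 ± 0.145 (adjusted p = 5.38e-06), while Tead4, the TEAD factor of trophectoderm, fell by 2.06 ± 0.292 (adjusted p = 0.000341). Amot alone was called in TET TKO ESCs against ESCs, higher by 1.92 ± 0.227 (adjusted p = 0.000967), where 1.1% of all genes were called higher. The medians of the list were 1.15 in NPs and 0.30 in TET TKO ESCs, against 0.04 and 0.12 over all genes. Tead4 itself was at 7.1 ± 1.36 RPKM in ESCs and 8.14 ± 2.25 RPKM in TET TKO ESCs (adjusted p = 0.57).

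Since several regulators have paralogs and roles outside trophoblast, lists for these were counted too. Of 21 paralogs, 5 were called higher and 3 lower of 16 tested in NPs and 0 of 11 in TET TKO ESCs (4 higher and 4 lower at an unadjusted p under 0.05, and 2 and 2 with DESeq2). Of all genes tested, 12.4% were called higher and 9.98% lower in NPs, and 1.1% and 1.21% in TET TKO ESCs. The 5 paralogs called higher in NPs include Krt7 and Krt19, which are also counted in the epithelial list. Foxa2 and Tead4 likewise stand in more than 1 list. Tfap2b, a second AP-2 factor, had 0 counts in ESCs and 4.02 ± 1.16 RPKM in NPs, where Tfap2c fell, and Gata5 rose from 0.00466 ± 0.00806 to 2.78 ± 0.971 RPKM (adjusted p = 1.17e-05). Gata1 and Tbx3 fell in NPs by 5.53 ± 0.632 (adjusted p = 0.000104) and 4.95 ± 0.571 (adjusted p = 0.000109) on the log2 scale. The T-box genes Eomes and Tbx3 thus both fell, while Tfap2c and Gata1 fell where Gata3 and Gata5 rose.

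For the other settings of Eomes, 2 of 8 genes of primitive streak and early mesoderm were called higher in NPs (Lhx1 and Foxa2). Both were under 1 RPKM in every ESC library, so the filter set their direction. The third gene tested, T, the defining marker of the streak, had a log2 fold change of -1.84 ± 0.479, past 0.05 and the fold limit but not called (adjusted p = 0.00928). For Gata2 and Gata3, 2 of 6 genes of V2 interneurons, which use Gata2 and Gata3, were called higher in NPs (Nkx6-1 at 1.57 ± 0.631 RPKM and Lhx3 at 1.01 ± 0.342 RPKM, of 3 tested). Nkx6-1 and Lhx3 were under 1 RPKM in every ESC library as well, and 12.4% of all genes tested were called higher in NPs. Of 6 genes of autonomic and motor neurons, where Hand2 and Gata3 act, 0 of 3 tested were called by edgeR, while 1 was higher at an unadjusted p under 0.05 and 1 with DESeq2. In TET TKO ESCs against ESCs, 2 streak and mesoderm genes, 1 V2 interneuron gene and 1 autonomic or motor neuron gene passed the filter. Of those tested, 0 were called by edgeR or DESeq2, and at an unadjusted p under 0.05 there were 1 higher and 2 lower. T alone was past 0.05 and the fold limit, with a log2 fold change of -1.97 ± 0.623 (adjusted p = 0.0421). In both comparisons with ESCs, T passed the filter only through ESC libraries.

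Markers of other cells that could carry keratins were read in the same libraries. Primitive endoderm markers summed to 42.8 to 48.6 RPKM in NPs, 22.3 to 22.5 RPKM in ESCs and 32.2 to 38.3 RPKM in TET TKO ESCs. Of these 10 markers, 8 were tested in NPs against ESCs, with 4 called higher, led by Foxa2 and Sox17, and 0 lower. Of all genes tested, 12.4% were called higher and 9.98% lower. Foxa2, Sox17, Gata6, Sox7 and Ttr were under 1 RPKM in every ESC library and could enter this test only if higher in NPs. In TET TKO ESCs Gata6, Sox17 and Foxa2, which define that lineage, each averaged under 0.4 RPKM, while Lamb1, a laminin gene that makes up most of the sum, was at 31.6 ± 3.26 RPKM against 19.2 ± 0.842 RPKM in ESCs (adjusted p = 0.00235, under the fold limit) and Dab2 at 1.72 ± 0.842 against 0.972 ± 0.25 RPKM (adjusted p = 0.12). Surface ectoderm markers summed to 6.01 to 7.15 RPKM in NPs, 20.5 to 23.3 RPKM in ESCs and 19.4 to 29.6 RPKM in TET TKO ESCs, 1 of 5 (Grhl3) was called lower in NPs, and Krt5, Krt14 and Trp63 averaged under 0.5 RPKM in every group. Fibroblast markers summed to 3.98 to 38.2 RPKM in NPs, 5.56 to 6.78 RPKM in ESCs and 2.91 to 5.34 RPKM in TET TKO ESCs. Of these 7 markers, 5 were tested in NPs against ESCs, with 2 called higher (Col3a1 and Postn) and 0 lower. Col3a1, Postn and Col1a2 were under 1 RPKM in every ESC library, so the filter set their direction. Past 0.05 and the fold limit 4 were higher and 1 lower, Thy1, at -2.87 ± 0.542 (adjusted p = 0.00171). In TET TKO ESCs against ESCs, only 2 primitive endoderm, 2 surface ectoderm and 3 fibroblast markers passed the filter and were tested. Of those tested, 0 were called by edgeR or DESeq2, with 2 higher and 1 lower at an unadjusted p under 0.05. Col1a2 alone was past 0.05 and the fold limit, higher by 3.29 ± 0.958 (adjusted p = 0.0316), and it passed the filter only through TET TKO libraries. The part of these markers in the keratin levels was not tested. Pluripotency genes were all 7 called lower in NPs, and 1 of 7, Zfp42, in TET TKO ESCs, where it fell by 2.6 ± 0.16 (adjusted p = 8.59e-05). Of all genes tested, 9.98% were called lower in NPs and 1.21% in TET TKO ESCs.

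**Figure D5:**
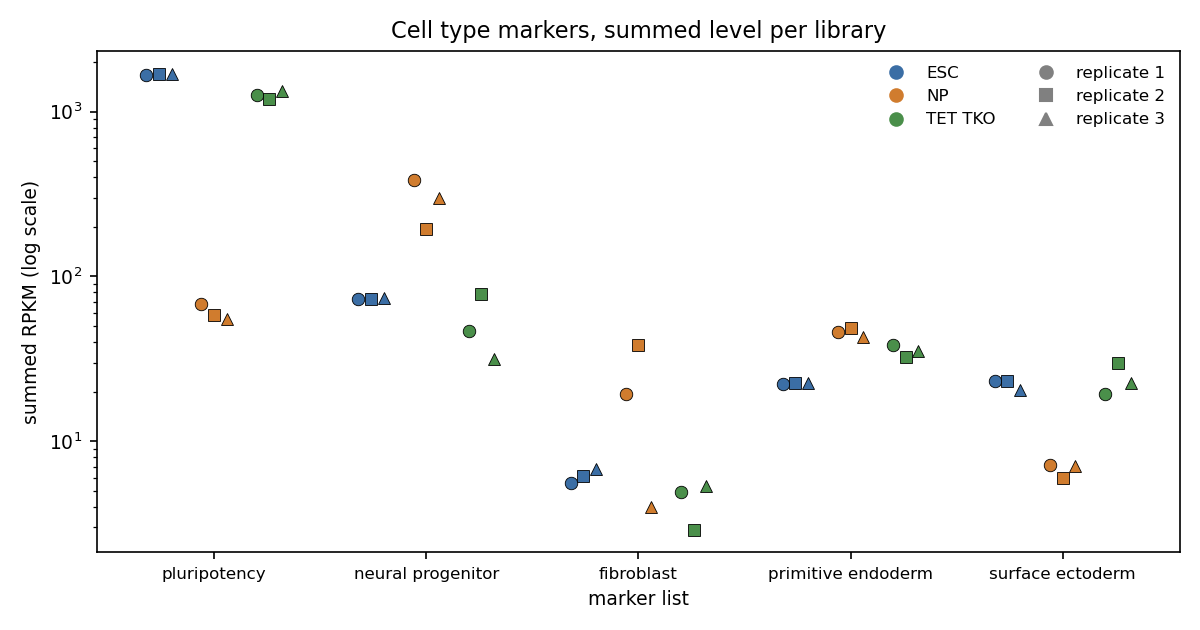
Summed RPKM (log axis) of 5 lists of cell type markers in each of the 9 libraries, with colour for the group and symbol for the replicate. Replicate 2 of NPs is lowest of the NPs for neural progenitor markers (195 RPKM) and highest for fibroblast markers (38.2 RPKM), and the pluripotency markers of TET TKO ESCs sum to at least 1190 RPKM.

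For each regulator with a mean of at least 1 RPKM in some group, the gene with the most similar levels was found by the Euclidean distance of log2(RPKM + 0.5) over the 9 libraries. Gata2 lay nearest to Gata3 (distance 1.5), the other GATA factor among the regulators, while Gata3 lay nearest to Csf1 (1.03), the macrophage growth factor. Krt18 lay nearest to the claudin gene Cldn6 (3.33), a member of the epithelial list, and Krt8 to Ccn1 (1.64), a target of YAP1. Hand1 lay nearest to Anxa8 (1.08), Tfap2c to Nup62cl (1.81), Eomes to Ccdc113 (0.545) and Cdx2 to the metal transporter gene Slc39a8 (0.734). The distances describe level and pattern together over 9 libraries, with the same 3 groups behind every gene.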

How the data were processed

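RNA-Seq measured 9 libraries, 3 per group, which the study calls biological replicates. Nothing more is said of separate cultures, so p-values measure the spread between these libraries. ESC replicates 1 and 2 were the closest pair within any group. The chi-square of their counts per degree of freedom was 2.37, against 14.0 and 19.7 for the other ESC pairs. The authors trimmed single-end reads (Trimmomatic 0.38), aligned them with STAR (2.6.1b) and deposited raw counts per gene from featureCounts 1.6.2, counted without strand (option 0) on Ensembl release 89 models of GRCm38. These counts were tested as deposited with edgeR 4.0.16 (R 4.3.3), by the quasi-likelihood F-test with TMM factors and Benjamini-Hochberg adjustment, for genes with at least 1 RPKM in at least 1 library of the groups compared. The study words its RPKM filter differently, and it was read as keeping such genes. SE is the log2 fold change over the square root of F. Depth per library stands with the results, and low counts have wide errors.

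The regulators and lists were chosen with earlier results of these data known. Named genes are the regulators, up to 2 called genes per list and direction with the largest change, Tet1, Tet2 and Tet3, and the nearest gene of each regulator. Alternatives were relative log expression factors, library totals alone, DESeq2 1.42.0, other filters and limits, all groups in 1 fit, the replicate number as a block, thinned TET TKO counts and each library left out in turn. Bisulfite, chromatin and siRNA data were not used here. Code was tested on simulated data. Python 3.11.15, numpy 2.4.6, pandas 2.3.3, scipy 1.17.1 and matplotlib 3.10.9 were used, and the number of columns matching no sample was 0.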

Additional observations from a re-analysis of the deposited data

How the results depend on the processing

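In NPs against ESCs, 3408 genes were called, 5281 without a filter on low counts and 5145 without a fold limit. Of the regulators, 3 were called higher, 5 with DESeq2 or at an adjusted p under 0.05, and 6 without a filter, which adds Elf5, Gata2 and Cdx2. Those called lower numbered 2, and 3 without a filter, which adds Hand1. With at least 10 counts in every library 1 was called lower, since Eomes is then removed. In TET TKO ESCs against ESCs, 322 genes were called, 910 with DESeq2, 1263 without a filter, 535 without a fold limit, 1147 at 0.05 and 674 with the replicate block. Regulators called higher numbered 1, and 5 with DESeq2, without a filter or at 0.05, 3 with all groups in 1 fit and 4 with the replicate block. Leaving out 1 library gave 50 to 329 genes and 0 to 2 regulators, the fits without ESC replicates 1, 2 and 3 giving 50, 59 and 74 genes and those without TET TKO replicates 1 and 2 giving 126 and 190. The cause was not tested. In TET TKO ESCs against NPs, 4873 genes were called without a filter and from 1603 without replicate 1 of NPs to 2601 without replicate 2, 1 regulator was called higher with at least 10 counts in every library, and 1 (Cdx2) was called lower with DESeq2, without a filter or at 0.05. Gata2 in this comparison ranged over the fits that left out 1 library from -0.90 to 0.30, the latter without replicate 2 of NPs. Under the alternatives run, no other fold change of a regulator changed sign. The level of Krt8 in NPs was 121 RPKM with library totals alone.

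Replicate numbers did not pair NP and ESC libraries. Correlations of deviations were -0.1364, 0.03279 and -0.2297 for the same number and -0.2047 to 0.2133 for different numbers. Between TET TKO ESCs and ESCs they were -0.1775, 0.4982 and 0.2714 for the same number and -0.5312 to 0.366 for different numbers. A pairing was neither shown nor excluded there. Depth limits Elf5, Cdx2, Hand1, Eomes in NPs and Gata2 and Gata3 in ESCs, where under 20 reads stand behind at least 1 library, and strain cannot be separated from the TET genotype.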
